A study of Mus musculus with 2 samples.

Results

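The mitochondrial ribosomal protein genes are the nuclear genes named Mrpl or Mrps followed by a number, and 78 of the 21901 protein-coding genes in the tables carry such a name. They were chosen by name alone, among genes with at least 1 transcript annotated protein_coding, out of 55536 annotated genes in all. Of the 78 members, 51 encode proteins of the large subunit, 26 encode proteins of the small subunit, and Mrps36 is known to belong to the 2-oxoglutarate dehydrogenase complex despite its name. Levels were read in adrenal tissue from adult males, 8 to 10 months old, of a cross between 5xFAD and CAST. 5xFAD mice carry mutated human amyloid precursor and presenilin transgenes driven by the neuronal Thy1 promoter, and CAST is an inbred strain of wild origin, whose reads were mapped to the reference like all others, with an effect that was not analysed here. The single group held 2 libraries, labelled biological replicates 1 and 2, each made from 300 ng of total RNA with ERCC spike-ins and ribosomal RNA reduction. Each library has its own biosample in the labels, but 1 donor entry covers the pair, and whether their spread is that between animals cannot be told. No further group was analysed here, so there is no comparison between groups and no p-value.

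Mitochondria keep their own ribosome, which translates the few messenger RNAs of mitochondrial DNA into core subunits of the respiratory chain and ATP synthase. Its ribosomal RNA is encoded in mitochondrial DNA, while every one of its proteins is encoded in the nucleus, made in the cytosol and imported. Part of the proteins descend from bacterial ribosomal proteins and part were added during the evolution of mitochondria. The adrenal cortex depends on mitochondria for steroid hormones, since cholesterol side-chain cleavage and the last steps of corticosterone synthesis take place there.

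Replicate 1 held 29204618 counts in annotated genes and replicate 2 held 26322446. The tissue label was checked against marker genes. All 6 adrenal cortex markers and all 5 chromaffin cell markers were detected, with cortex markers summing to 17125 and 18087 TPM (a transcript level per length, scaled to the total of its library) in replicates 1 and 2, and chromaffin markers to 1981 and 2289 TPM. Markers of other cells were present too, and none was at 0. The 6 white adipocyte markers summed to 701 TPM in replicate 1 and 419 TPM in replicate 2, and all 6 were lower in replicate 2. The 4 brown adipocyte markers summed to 53.0 and 47.8 TPM, and the 5 macrophage markers to 220 and 138 TPM. In bulk tissue, fewer cells of a type and less RNA per cell cannot be told apart.

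Every member was expressed. All 78 reached at least 1 TPM in both libraries, against 56.4% of all protein-coding genes. Together they held 0.586% and 0.582% of the TPM of protein-coding genes in replicates 1 and 2. The median member was at 24.4 TPM in replicate 1 and 24.8 TPM in replicate 2, a mean of 24.6 ± 0.226 TPM (SD, n = 2). Of the members, 71 lay between 10 and 60 TPM, 3 were higher and 4 were lower. The 90th percentile of the members was 3.73 times the 10th percentile. That ratio was 3.97 for the assembly factors, 7.66 for the 15 genes of mitochondrial translation and 6.55 for the 7 of mitochondrial transcription. For the 5 mitoribosome proteins with other names it was 2.21, and for the 13 mitochondrially encoded mRNAs 2.78. It was 6.08 for the 86 detected cytosolic ribosomal protein genes and 4.37 for the 81 detected nuclear genes of oxidative phosphorylation, and 14.3 and 7.79 with the undetected genes of those lists. The median detected protein-coding gene was at 12.5 TPM, and 71 members stood above it.

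**Figure D1:**
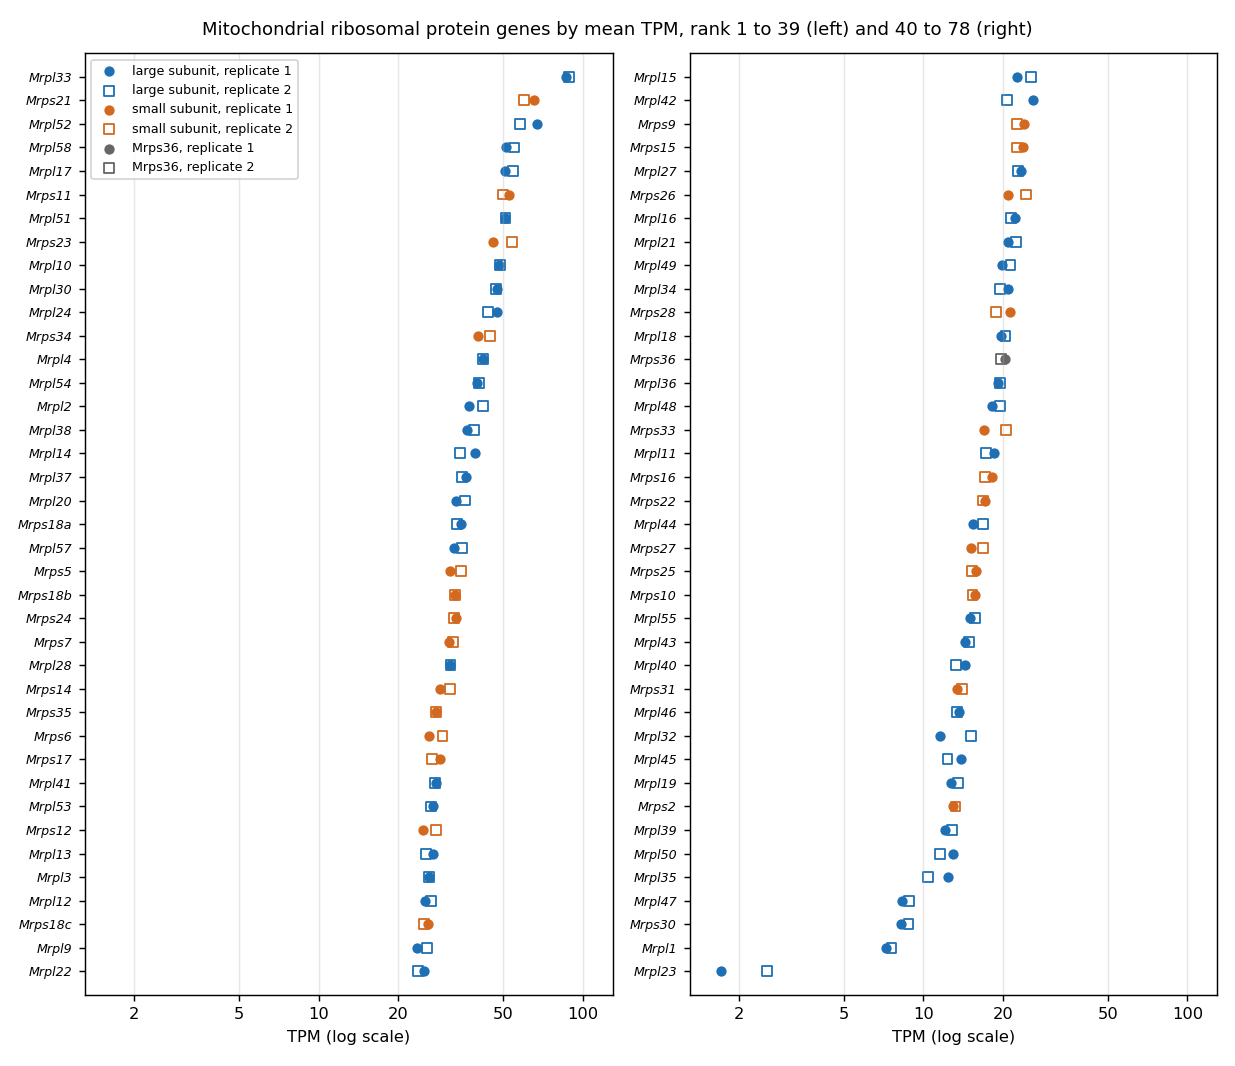
TPM (log scale) of each of the 78 members in replicate 1 (filled circles) and replicate 2 (open squares), ordered by mean, with large subunit members in blue, small subunit members in orange and Mrps36 in grey. From Mrpl33 at 86.3 and 88.7 TPM the levels run down to Mrpl1 at 7.21 and 7.57 TPM, and Mrpl23 stands apart at 1.71 and 2.56 TPM.

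Among proteins of the large subunit that have a counterpart in bacteria, 30 genes had medians of 23.5 and 24.7 TPM in replicates 1 and 2. Mrpl33, which encodes a small protein of this group, was the highest of all members at 86.3 and 88.7 TPM. Its gene lies on chromosome 5 from 31596935 to 31664384 on the forward strand (mm10) and shares exon sequence with the noncoding gene Gm43809. Mrpl17 followed at 51.0 and 54.6 TPM. Mrpl10 was at 48.3 and 48.5 TPM, and its partner in the stalk at the factor-binding site, Mrpl12, at 25.2 and 26.6 TPM. Mrpl30 was at 47.3 and 46.9 TPM. The 2 libraries of Mrpl10 and of Mrpl30 differed by less than 1 TPM, and Mrpl10 lay above Mrpl12 in both libraries.

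This group also held low members, the lowest being Mrpl23, described further on. Mrpl1, whose bacterial counterpart forms the mobile stalk beside the exit site for transfer RNA, was at 7.21 and 7.57 TPM. Mrpl47 was at 8.30 and 8.83 TPM, Mrpl35 at 12.4 and 10.4 TPM and Mrpl19 at 13.1 ± 0.566 TPM (SD, n = 2). A low TPM did not mean few reads: Mrpl1 had 530 and 475 counts over an effective length of 2568 and 2452 bases, while Mrps21, the second highest member, had 613 and 485 counts over 326 and 316 bases. Across the 78 members, Spearman's rho of TPM with effective length was -0.58, and that of count with effective length was 0.33. TPM is computed by dividing by that length, so the measures are not independent. The remaining genes of the group were Mrpl2, Mrpl3, Mrpl4, Mrpl9, Mrpl11, Mrpl13, Mrpl14, Mrpl15, Mrpl16, Mrpl18, Mrpl20, Mrpl21, Mrpl22, Mrpl24, Mrpl27, Mrpl28, Mrpl32, Mrpl34, Mrpl36 and Mrpl55.

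Large subunit proteins without a bacterial counterpart were encoded by 21 genes with medians of 26.1 and 21.4 TPM. Mrpl52 was highest at 67.3 TPM in replicate 1 and 57.7 TPM in replicate 2. Mrpl58, which descends from a release factor and hydrolyses peptidyl-tRNA on stalled ribosomes, was at 51.5 and 54.9 TPM, and Mrpl51 at 50.9 and 51.0 TPM. At the low end of the group, Mrps30 was at 8.24 and 8.78 TPM, Mrpl50 at 13.0 and 11.6 TPM and Mrpl39 at 12.02 and 12.81 TPM. Mrpl45, which lies at the tunnel exit next to the inner membrane, was at 13.9 and 12.3 TPM. The other genes were Mrpl37, Mrpl38, Mrpl40, Mrpl41, Mrpl42, Mrpl43, Mrpl44, Mrpl46, Mrpl48, Mrpl49, Mrpl53, Mrpl54, Mrpl57 and Mrps18a.

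In the small subunit, 16 genes with a bacterial counterpart had medians of 26.1 and 27.3 TPM, and 10 without one had medians of 19.1 and 22.5 TPM. Mrps21 led at 65.7 and 59.9 TPM, ahead of Mrps11 at 52.6 and 49.9 TPM and Mrps23 at 45.6 and 53.8 TPM. Mrps11 and Mrps23 changed order between the libraries, so their ranks do not differ beyond their spread. Mrps12, part of the decoding centre, was at 24.8 and 27.9 TPM, and Mrps2 was lowest at 12.9 and 13.2 TPM. The small subunit had no member under 10 TPM, whereas the large subunit had 4. The other genes with a counterpart were Mrps5, Mrps6, Mrps7, Mrps9, Mrps10, Mrps14, Mrps15, Mrps16, Mrps17, Mrps18c, Mrps24 and Mrps28, and the others without one were Mrps18b, Mrps22, Mrps25, Mrps26, Mrps27, Mrps31, Mrps33, Mrps34 and Mrps35.

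The 3 paralogs of bacterial S18 occupy separate places in the ribosome. Mrps18a, a large subunit protein, was at 34.5 and 33.5 TPM, and Mrps18b, of the small subunit, at 33.0 and 32.8 TPM. Mrps18c, also of the small subunit and at the position of the bacterial protein, was at 26.0 and 25.1 TPM. Mrps18a and Mrps18b differed by 1.58 TPM or less within a library, and Mrps18c lay below both in both libraries. Mrps36 was at 20.4 and 19.7 TPM, within the range of the ribosomal members.

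The ratio of the large subunit median to the small subunit median was 0.929 in replicate 1 and 0.917 in replicate 2, a mean of 0.923 ± 0.00807 (SD, n = 2). With TPM of protein_coding transcripts only the order turned, and the ratio was 1.14. The members' own spread is far wider than this difference, with quartiles of 15.0 and 36.1 TPM in the large and 17.9 and 32.5 TPM in the small subunit. The 5 mitoribosome proteins with other names, which the naming rule leaves out, were Dap3 at 53.9 and 50.5 TPM, Aurkaip1 at 45.8 and 44.9 TPM, Ptcd3 at 38.4 and 41.4 TPM, Chchd1 at 23.9 and 21.3 TPM, and Gadd45gip1 at 21.8 and 22.8 TPM. All 5 lay within the range of the members, and the member median was 0.617 ± 0.0269 times theirs (SD, n = 2).

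**Figure D2:**
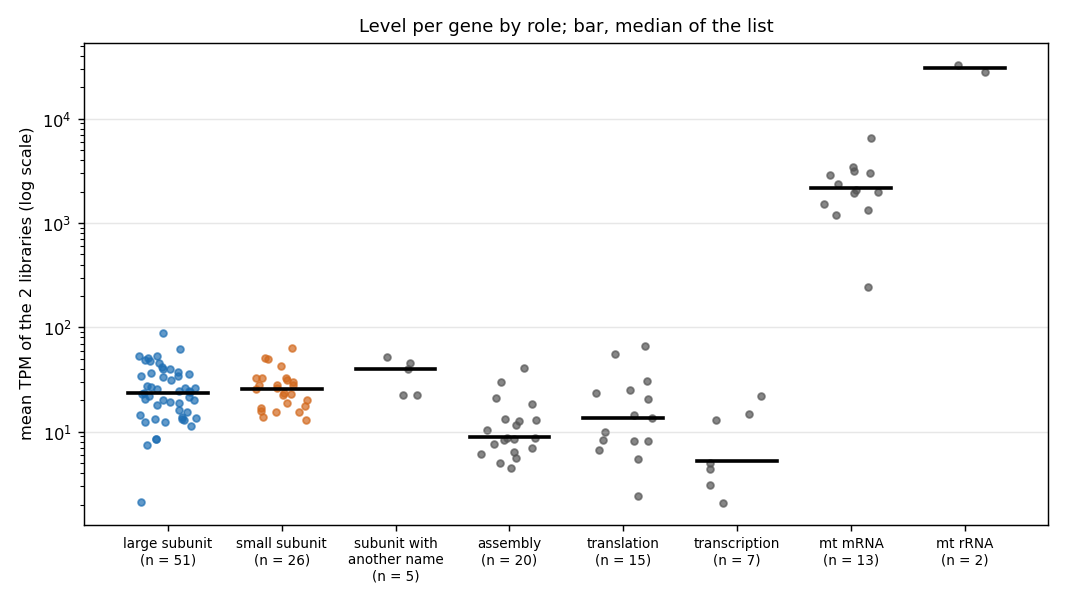
Mean TPM of the 2 libraries (log scale) for each gene, grouped by role, with a bar at the median of each list. The medians were 23.7 TPM for the large and 25.7 TPM for the small subunit, 8.87 TPM for assembly factors, 13.4 TPM for translation factors, 5.24 TPM for transcription factors of mitochondrial DNA and 2172 TPM for mitochondrially encoded mRNA.

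Factors that act on the ribosome were mostly lower than its proteins. The 20 genes of mitoribosome assembly were all detected, with medians of 8.56 and 9.18 TPM in replicates 1 and 2, so that the member median was 2.78 ± 0.112 times higher (SD, n = 2). The highest were the helicase gene Dhx30 at 37.9 and 43.5 TPM, the small subunit factor Rbfa at 27.4 and 32.5 TPM, Mterf3 at 19.4 and 23.1 TPM and Ngrn at 17.8 and 19.3 TPM. The lowest were Trmt61b at 5.44 and 4.54 TPM and Tfb1m, a methyltransferase of the small ribosomal RNA, at 4.62 and 4.34 TPM. Of the 20, only Dhx30 and Rbfa lay above the member median in both libraries.

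The 15 genes of mitochondrial translation had medians of 13.1 and 13.8 TPM, and the member median was 1.83 ± 0.0554 times that. Elongation factor Tu, encoded by Tufm, was at 66.7 and 65.9 TPM, Slirp, whose product binds mitochondrial mRNA, at 59.95 and 50.65 TPM, Oxa1l at 29.1 and 31.6 TPM and the elongation factor gene Gfm1 at 24.0 and 26.6 TPM. The release factor genes Mtrf1l, at 5.18 and 5.66 TPM, and Mtrf1, at 2.24 and 2.63 TPM, were lowest. Tufm exceeded all members but Mrpl33 and, in replicate 1, Mrpl52.

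The 7 genes of mitochondrial transcription ran from the polymerase gene Polrmt at 23.8 and 20.1 TPM through Tfam at 14.8 and 14.7 TPM, Tfb2m at 11.3 and 14.8 TPM and Tefm at 5.35 and 4.75 TPM to Mterf1a at 2.60 and 3.58 TPM and Mterf1b at 2.12 and 2.05 TPM. Their products make the RNA that the ribosome holds and reads. The mitochondrial ribosomal RNAs mt-Rnr1, the 12S RNA, and mt-Rnr2, the 16S RNA, were at 33625 and 32395 TPM and at 28981 and 27367 TPM in replicates 1 and 2. These libraries were reduced of ribosomal RNA, and how far that step took mitochondrial ribosomal RNA was not tested, so these levels do not compare with those of the proteins.

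Against other large complexes, the cytosolic ribosomal protein genes had a median 9.90 ± 0.115 times that of the members (SD, n = 2), and nuclear oxidative phosphorylation genes one 3.12 ± 0.00827 times as high. Of the cytosolic list 86 genes of 92 were detected, and of the oxidative phosphorylation list 81 of 85. The lists came from gene names and hold tissue-restricted paralogs, which enter their medians.

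The levels of the members differed little between the libraries. Counts were rounded, scaled by TMM and compared as a log2 ratio of replicate 2 to replicate 1, with a standard error from Poisson counting, which covers counting error only. The median ratio over the 78 members was -0.0030, with 36 members higher and 42 lower in replicate 2. None passed 1.5-fold, where 6.71% of the 16383 genes averaging 20 counts or more did, and 2.24% of the 12596 genes averaging 100 or more. Members have between 108 and 2225 counts a library, and 1.24% of the 7590 genes within the range of mean counts of the members other than Mrpl23 passed 1.5-fold. The median absolute log2 ratio was 0.076 over the members and 0.092 over those 7590 genes, next to a median counting error of 0.084 for the members.

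**Figure D3:**
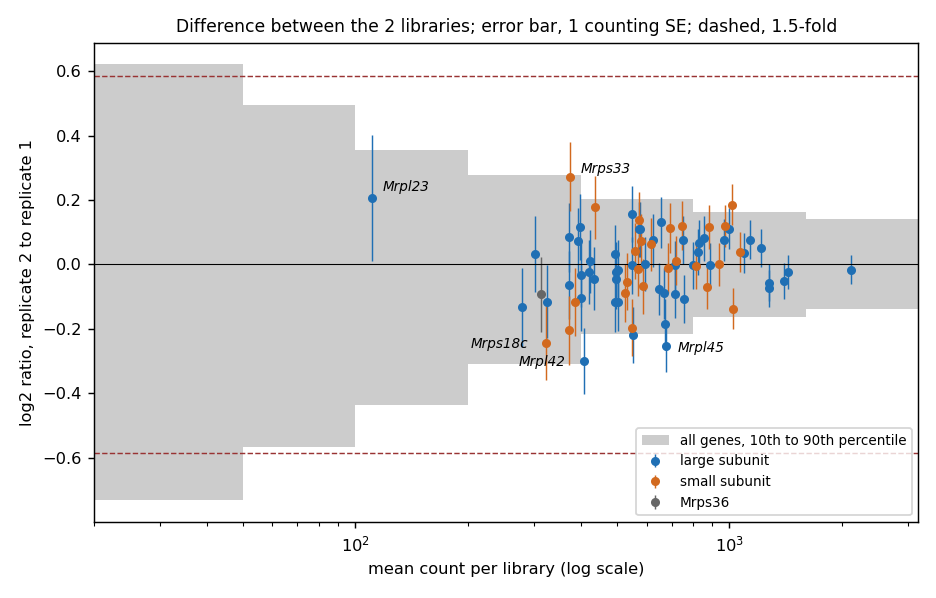
Log2 ratio of replicate 2 to replicate 1 against mean count per library (log scale), with bars of 1 counting standard error. Grey blocks span the 10th to 90th percentile of all genes in a range of counts, and dashed lines mark 1.5-fold. All members lie between the dashed lines, from -0.30 for Mrpl42 to 0.27 for Mrps33.

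The widest ratios stood on both sides of 0. Mrpl42 had 470 counts in replicate 1 and 346 in replicate 2, a log2 ratio of -0.30 ± 0.10 (counting SE). It was followed by Mrpl45 at -0.25 ± 0.079, Mrps18c at -0.24 ± 0.11, Mrpl52 at -0.22 ± 0.088 and Mrps28 at -0.20 ± 0.11. On the other side Mrps33 had 357 and 391 counts, a log2 ratio of 0.27 ± 0.11, ahead of Mrpl23 at 0.21 ± 0.19, Mrps23 at 0.19 ± 0.064, Mrps12 at 0.18 ± 0.098 and Mrpl20 at 0.16 ± 0.087.

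Beyond 2 counting errors lay 9 members, or 11.5%, against 29.8% of all 16383 genes. The counting error shrinks as counts rise, and these shares were not matched for counts. The 9 members were Mrps33 and Mrps23, higher in replicate 2, and Mrps21, Mrpl52, Mrps11, Mrps18c, Mrpl42, Mrpl45 and Mrpl50, lower in replicate 2. Over the same libraries the white adipocyte markers had a median log2 ratio of -0.86, the macrophage markers -0.58 and the brown adipocyte markers -0.47, while cortex markers had 0.046 and chromaffin markers 0.17. Single markers ranged from -1.11 to 0.092 for brown adipocytes, from -0.087 to 0.41 for cortex and from 0.023 to 0.56 for chromaffin cells. Those of white adipocytes and macrophages were all lower in replicate 2. The part of these cells in the ratios of single members was not tested.

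Mrpl23, which encodes the large subunit protein next to the exit tunnel, was the one member that the 2 quantifications of the same reads placed far apart. In the gene table it had 108 and 113 counts, or 1.71 and 2.56 TPM, and all of it was assigned to transcripts annotated other than protein_coding. The second quantifier, which worked from the reads and the same transcripts, gave 34.1 and 31.5 TPM. The processed pseudogene Mrpl23-ps1, added after its values were seen, showed the reverse: 33.5 and 29.0 TPM in the gene table and 0 in both libraries of the second quantifier. Summed, the pair had 35.2 and 31.6 TPM in the gene table and 34.1 and 31.5 TPM in the second quantifier. The sums lie among the levels of the other members, but reads from the gene and the pseudogene cannot be told apart from the tables.

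The sequences show how alike the pair is. Mrpl23 lies on chromosome 7 from 142532686 to 142540747 on the forward strand, and Mrpl23-ps1 on chromosome 2 from 74591330 to 74591909 on the reverse strand (mm10, GENCODE M21). The pseudogene spans 580 bases without an intron, and 540 bases in a row are identical to the transcript Mrpl23-201, which has 692 bases in 5 exons. Shown are the first 60 coding bases of Mrpl23-201 and the same stretch of the pseudogene, in lower case up to the end of the first coding exon and in capitals from the second, so that the change of case marks the splice junction that the pseudogene holds already joined.
Mrpl23-201: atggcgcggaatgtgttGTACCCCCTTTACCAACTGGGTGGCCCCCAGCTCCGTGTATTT
Mrpl23-ps1-201: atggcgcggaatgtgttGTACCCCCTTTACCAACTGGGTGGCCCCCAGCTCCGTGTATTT
No base differs, and the run goes on through the junction, so a read inside the shared 540 bases fits both genes equally well.

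**Figure D4:**
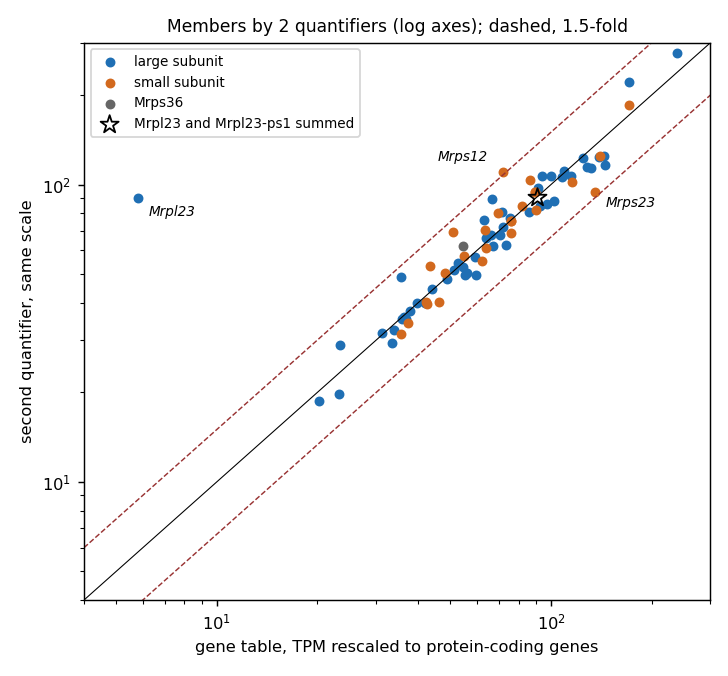
TPM rescaled to protein-coding genes in the gene table (horizontal) and in the second quantifier (vertical), mean of 2 libraries, log axes, with dashed lines at 1.5-fold. Mrpl23 lies at a log2 difference of 3.93 above the diagonal and Mrps12 just over the upper line at 0.62, while the star, Mrpl23 summed with its pseudogene, lies at -0.012.

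Shared sequence was searched for all members by asking how many of the 50-base words in their protein_coding transcripts also occur in transcripts of another gene. Of the 78 members 41 shared at least 1 word, and 15 shared over 10% of their words. The search was run for the members only, so how common such sharing is among other genes was not counted. A shared word need not mark a copy, and those of Mrpl20 occur in 213 genes. All words of Mrpl53 occur in Gm42688, which is annotated protein_coding and was at 4.64 and 4.18 TPM. Exons of Gm42688 overlap those of Mrpl53 on the same strand, so it is an overlapping gene and not a copy elsewhere. The same holds for the genes that share most with Mrpl33, Mrps6 and Mrps18c. Mrpl23 shared 51.7% of its words, Mrps36 33.7%, with 7 genes of which Mrps36-ps1 shared most, Mrpl22 33.4% with Gm6997, Mrpl27 32.4% and Mrps18b 27.2% with Gm13552. None of the copies of Mrps36, Mrpl22 and Mrps18b that shared most reached 1 TPM in either quantification.

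Other copies held counts. Gm5776, a processed pseudogene that shares words with Mrps33, was at 9.71 and 9.26 TPM in the gene table and at 3.53 and 11.5 TPM in the second quantifier. Mrps33 itself was at 16.9 and 20.5 TPM in the gene table and 22.3 and 27.9 TPM in the second quantifier, and its count had a posterior SD of 9.90 and 9.85, the authors' measure of how far reads could be assigned. AC154457.3, which shares words with Mrps10, was at 3.06 and 3.56 TPM and Gm13328, which shares words with Mrps5, at 2.69 and 2.63 TPM. Mrpl48-ps, which shares 4.77% of the words of Mrpl48, was at 3.91 and 4.28 TPM in the gene table. The posterior SD was 0 in both libraries for 55 members and over 5 for 6 members, and these shares were not counted over other genes. It was highest for Mrpl23 at 18.5 and 16.3 counts. Besides Mrps33, the others over 5 were Mrpl53 at 7.33 and 6.92, Mrps34 at 6.80 and 5.94, Mrps5 at 6.03 and 5.88 and Mrpl48 at 5.26 and 5.07. The genes that share words were found after the values were seen. The values of Mrpl23 and Mrps33 are uncertain because of their copies, and that of Mrpl53 because of the overlapping Gm42688. By the posterior SD, the counts of Mrps34, Mrps5 and Mrpl48 are uncertain too, to a smaller degree.

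Apart from Mrpl23 the quantifications were close. With both scaled to protein-coding genes, 2 of the 78 members differed by over 1.5-fold, against 4.25% of 12827 protein-coding genes. The median absolute log2 difference was 0.12 for the members and 0.14 for those genes. Mrps12 was higher in the second quantifier by 0.62, at 24.8 and 27.9 TPM in the gene table and 33.8 and 46.3 TPM in the second quantifier. Next were Mrpl19 by 0.46, Mrps33 by 0.44 and Mrpl22 by 0.43. Lower in the second quantifier were Mrps23, at -0.52, Mrpl58, at -0.32, Mrpl16, at -0.27, and Mrps30 and Mrpl53, at -0.23 each. Spearman's rho between the quantifications was 0.93 over the 78 members and 0.96 without Mrpl23, both from the same reads.

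A gene's TPM is not all from its coding transcripts. GENCODE M21 lists 343 transcripts for the members, 170 protein_coding, 88 with a retained intron, 61 processed transcripts and 24 subject to nonsense-mediated decay. The median member had 10.9% of its TPM outside protein_coding transcripts, against 14.7% for detected protein-coding genes. By counts the order turned, with 11.1% for the median member and 6.11% for those genes. In 13 members the share was 0 in both libraries, but 10 members, Mrpl1, Mrpl10 and Mrps23 among them, have no other kind of transcript annotated, so their share could not differ from 0. The 3 with a share of 0 and other transcripts annotated were Mrpl49, Mrps27 and Mrps33. In 19 members, or 24.4%, it was over 50% in both libraries, against 9.53% of the 12355 detected protein-coding genes.

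The highest shares were those of Mrpl23 with 100%, Mrpl51 with 95.4% and 94.3%, Mrps26 with 93.6% and 95.7%, Mrpl57 with 93.6% and 95.6%, Mrps16 with 94.2% and 94.3%, Mrps14 with 90.2% and 91.4%, Mrpl15 with 86.8% and 88.6% and Mrpl32 with 83.8% and 88.3% in replicates 1 and 2. In Mrps16, which encodes a small subunit protein, a processed transcript of 801 bases was at 17.2 and 16.1 TPM, and the only coding transcript, of 2572 bases, at 1.06 and 0.98 TPM. In Mrpl57 the retained-intron transcript of 519 bases was at 30.4 and 33.2 TPM and the coding one of 2877 bases at 2.09 and 1.54 TPM. In Mrps14 the transcript subject to nonsense-mediated decay, at 25.9 and 28.6 TPM, stood over coding ones at 2.81 and 2.71 TPM in sum.

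The annotated coding transcripts of Mrpl51, Mrps16 and Mrpl57 are long, and TPM divides by length. By counts their share was lower: Mrpl51 had 80.3% and 76.5%, Mrps16 82.1% and 82.4%, Mrpl57 68.6% and 76.5%. Mrpl23, whose coding transcripts have 590 to 736 bases, had 100% by counts too. Counts gave 13 members over 50% in both libraries, against 5.02% of detected protein-coding genes. Mrps25 went from 83.7% and 83.6% of TPM to 29.5% and 29.3% of counts, its coding transcript having 6073 bases and its 2 retained-intron transcripts 565 and 636. Mrpl19 went from 71.4% and 72.1% to 18.2% and 16.6%. With the second quantifier 19 members were over 50% of TPM, of which 17 were over 50% in the gene table too. Mrpl23 was not among the 17, with 100% in the gene table but 25.7% and 50.4% in the second quantifier. Mrpl33, the highest member, also differed, with 29.6% and 19.3% in the gene table and 96.0% and 65.3% in the second quantifier. Its only coding transcript was at 60.8 and 71.6 TPM in the gene table and at 4.34 and 32.4 TPM in the second quantifier, so its coding level is uncertain. Whether the short transcripts are separate RNAs or pieces of a coding RNA with another end than the annotated one was not tested.

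**Figure D5:**
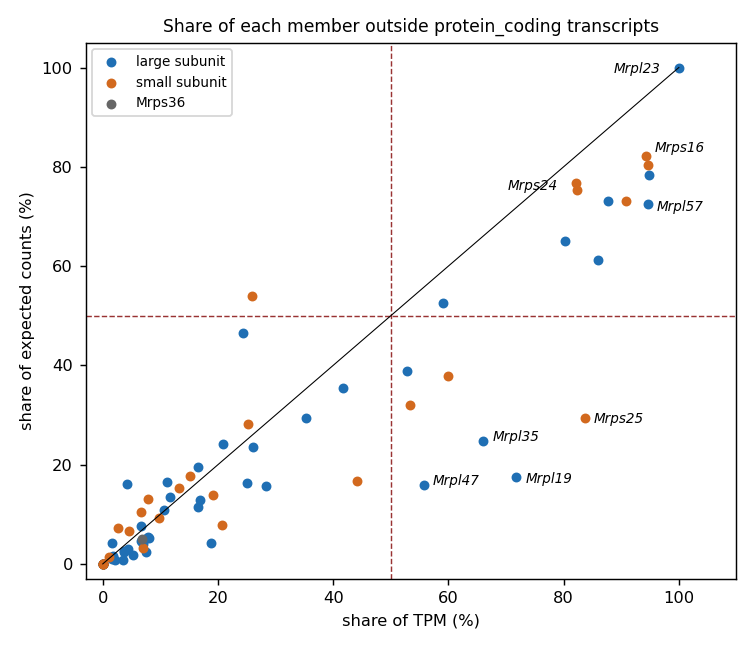
Share of each member outside protein_coding transcripts, as percent of its TPM (horizontal) and of its expected counts (vertical), means of 2 libraries, with dashed lines at 50%. Mrps25, Mrpl19, Mrpl35 and Mrpl47 are over the line by TPM and under it by counts, while Mrps16, Mrps24 and Mrpl57 are over it by both.

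Where the genes lie was not used to choose them. The 78 members are spread over 17 chromosomes, with the most, 11, on chromosome 11. Of them 33, or 42.3%, start within 1000 bases of a protein-coding gene on the opposite strand (head to head), against 10.9% of all protein-coding genes and 15.9% of the detected ones. The partners, named here after their values were seen, ranged from barely expressed to abundant. Fau, a fusion gene whose product holds the cytosolic ribosomal protein S30, starts 59 bases from Mrpl49 and was at 351 and 357 TPM, while Mrpl49 was at 19.8 and 21.4 TPM. Ska3, 49 bases from Mrpl57, was at 0.10 and 0.07 TPM, while Mrpl57 was at 32.5 and 34.8 TPM. Ppp1r10, 45 bases from Mrps18b, was at 34.0 and 34.7 TPM, close to Mrps18b. Over the 33 members with a partner, the partner was lower in both libraries for 22 and higher in both for 11. It was within 1.5-fold in both libraries for 6, and under 1 TPM in at least 1 library for 5. These are levels of whole genes, and 71 of the 78 members stood above the median detected protein-coding gene. How the partners of other genes compare was not counted.

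Some partners, also picked after their values were seen, encode mitochondrial proteins, and how often other genes have such partners was not counted. Mrps11 and Mrpl46 start 412 bases apart on chromosome 7 with overlapping exons, at 52.6 and 49.9 TPM against 13.6 and 13.4 TPM. Of the TPM of Mrps11, 80.3% and 83.8% lay outside protein_coding transcripts. With protein_coding transcripts only the order turned, with Mrps11 at 10.4 and 8.08 TPM and Mrpl46 at 13.2 and 12.6 TPM. In the second quantifier these transcripts kept the order, at 23.0 and 19.7 TPM against 12.7 and 12.5 TPM. Ndufs6, a complex I gene, starts 29 bases from Mrpl36 and was at 47.8 and 46.9 TPM. Ndufb5, also of complex I, starts 615 bases from Mrpl47 and was at 72.1 and 74.6 TPM. Sars2, the mitochondrial seryl-tRNA synthetase gene, lies 172 bases from Mrps12 and was at 8.51 and 8.94 TPM, and Twnk, the helicase of mitochondrial DNA, 779 bases from Mrpl43 at 11.3 TPM in both libraries. Exons of 28 members overlap those of a gene on the opposite strand, and how many other genes do so was not counted. The kit named in the labels keeps strand, but whether the quantifiers used it is not given in the sources used here, so reads of such pairs may be mixed.

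Promoters were read from RefSeq (GRCm38.p6), as the 250 bases before and 50 bases after an annotated start, and 69 of the 78 members had an entry. Short cores of 3 factors known to bind promoters of mitochondrial genes were searched on both strands. The NRF1 core GCGCATGCG was present in 7 members, or 10.1%, against 1.95% of 27025 genes. The ETS-family core CCGGAAGT was present in 12, or 17.4%, against 4.31%, and the YY1 core AAGATGGCG in 8, or 11.6%, against 1.64%. At least 1 of the 3 was present in 26 members, or 37.7%, against 7.48% of all genes, and 1 member, Mrps27, held more than 1 kind. The comparison is with all genes with an entry, noncoding ones included, and was not matched for base composition.

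Windows of up to 29 bases before the RefSeq start are shown for 6 members, 2 for each core. They are examples of how the cores lie before that start, written 5′ to 3′ on the strand of the gene with the core in capitals. By the GENCODE M21 bounds used for the neighbours, the windows of Mrpl39, Mrpl51 and Mrpl36 lie inside the gene. That of Mrpl17 lies partly inside. Mrpl17, at chr7:105811088-105811108 on the reverse strand, and Mrpl39, at chr16:84735351-84735379 on the reverse strand, hold the NRF1 core. In Mrpl39 the core is also read on the other strand 1 base on. Mrpl51, at chr6:125192100-125192127 on the forward strand, and Mrpl43, at chr19:45006443-45006464 on the reverse strand, hold the ETS core. Mrps11, at chr7:78783013-78783041, and Mrpl36, at chr13:73330968-73330996, both on the forward strand, hold the YY1 core as its reverse complement.
Mrpl17, NRF1 core: ccgagttactGCGCATGCGtc
Mrpl39, NRF1 core: aaggagaggcGCGCATGCGcccccgcgtg
Mrpl51, ETS core: aggggctaaaCCGGAAGTatttgactgg
Mrpl43, ETS core: aaccccggaaCCGGAAGTcacc
Mrps11, YY1 core: ctacgggcgcCGCCATCTTtctgtcttcc
Mrpl36, YY1 core: cgtgaccttaCGCCATCTTtcttcctggc
The examples were picked with their levels known. Over all matches, including those at or after the start, the mean TPM of the members ran from 14.6 in Mrpl43 to 87.5 in Mrpl33 for the ETS core, from 12.4 in Mrpl39 to 52.8 in Mrpl17 for the NRF1 core, and from 11.4 in Mrpl35 to 51.2 in Mrps11 for the YY1 core. A match is a run of letters and not a measured binding site.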

How the data were processed

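Total RNA of 2 adrenal libraries was quantified by the submitters, per the library notes with the GENCODE M21 annotation of mm10. Tool names are not given in these sources. The authors deposited expected counts, TPM and FPKM per gene, and per the file headers a posterior SD of each count, a score in counts, and an effective length in bases. The deposited transcript tables hold the same kinds of value per transcript, and its percent of the gene's TPM. A further deposited transcript table, called the second quantifier, holds estimated counts and TPM and was summed per gene. The authors' TPM sums over 81881 features, so that abundant noncoding RNA lowers every other value.

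Expected counts were rounded. Entries that name no annotated gene stayed out of library sizes. Ratios used TMM factors of 0.997 and 1.00 from edgeR 4.0.16 in R 4.3.3 and a prior count of 0.5, with size factors of DESeq2 1.42.0 as an alternative. Detection meant 1 TPM in both libraries, and 0.1 TPM was added before quantifiers were compared. Python 3.11.15, numpy 2.4.6, pandas 2.3.3 and matplotlib 3.10.9 were used. The ratio step was tested on simulated counts. Transcript sequences came from GENCODE M21. Protein sequences were not used here.

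Members, gene lists and alternatives were chosen with earlier results of these data known. Named members are the 10 highest and 10 lowest, the widest ratios and quantifier differences, the highest shares outside protein_coding transcripts, a few paralogs, and every member by name in its group. Pseudogenes and neighbours were added after their values were seen.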

Additional observations from a re-analysis of the deposited data

How the results depend on the processing

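All 78 members were detected also at 0.5 TPM, with the second quantifier and in each library alone, and 77 at limits of 2 and 5 TPM. No member passed 1.5-fold between the libraries under any of the scalings or prior counts tried or with TPM or the second quantifier. The count limits tried could not change this, because all 78 members averaged 100 counts or more. The median TPM of 24.6 became 23.9 as FPKM, 25.5 with the second quantifier, 67.1 scaled to protein-coding genes and 17.95 with protein_coding transcripts only. The large subunit median became 23.0, 24.9, 64.6 and 19.4 in the same order, and the small subunit median 24.9, 26.5, 70.04 and 17.05. The large to small ratio was 0.940 with the second quantifier and 1.14 with protein_coding transcripts only. In that order, the cytosolic to member ratio was 10.3 and 11.5, the oxidative phosphorylation to member ratio 3.03 and 3.66, the member to translation ratio 2.20 and 2.13, and the ratio to subunits with other names 0.702 and 0.806.

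Settings added after seeing the data summed Mrpl23 with its pseudogene or left Mrpl23 out. They gave medians of 25.1 and 24.95 TPM for all members and 25.3 and 24.5 TPM for the large subunit. The large to small ratio became 0.985 and 0.954, the cytosolic to member ratio 9.70 and 9.76, and the oxidative phosphorylation to member ratio 3.05 and 3.07. With the sum, 1 member in place of 2 differed between the quantifiers. Over 14 results and 99 alternatives, 66 values stayed within the spread or within 1.5 times a count, and 33 moved. Many of the 66 could not have moved. With 1 of 2 libraries left out, a median or ratio always stays within their SD of the mean. FPKM and rescaling to protein-coding genes leave ratios within a library unchanged apart from rounding. The number that stayed is therefore no measure of how firm the results are. The ratio between libraries needs both, so it has no value without a replicate. With 1 group of 2 libraries, depth sets the counting error of each ratio, widest for Mrpl23. No paired analysis was possible because there is only 1 group.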
